A study of Mus musculus with 24 samples.

Results

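Serum amyloid A (SAA) proteins are small apolipoproteins of the acute phase response, and the family in this dataset was taken as every array probe annotated to Saa1, Saa2, Saa3 or Saa4. That rule gave 5 of the 45281 probes and 4 of the 19053 genes with a symbol of their own. Saa1 had 2 probes, ILMN_2768154 and ILMN_2826869. The other genes had 1 each, ILMN_2758571 for Saa2, ILMN_2772632 for Saa3 and ILMN_1247506 for Saa4.

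The series holds 24 Illumina bead arrays of liver and lung from female BALB/c mice, 3 per group, at a labelled age of 22 weeks. The groups in each tissue were 4T1 cell-injected on a high-fat diet (4T1 HFD), 4T1 cell-injected on a control diet (4T1 CD), sham-injected on a high-fat diet (sham HFD) and sham-injected on a control diet (sham CD). 4T1 is a mammary carcinoma line derived from a BALB/c mouse, so host and cells share a strain background. The cells went into the mammary fat pads after 16 weeks on either diet, the diets were continued, and tissue was taken 14 days later. The study's stated comparison is of diets within an injection, in mice its title calls resistant to obesity. The labels do not say that replicate arrays came from separate mice, so every p-value covers only the spread between these arrays, which may be technical, and their number limits the precision.

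In mice, Saa1 and Saa2 encode the classical acute phase isoforms, which the liver secretes during inflammation and which travel on high-density lipoprotein (HDL). Interleukin-6, interleukin-1 and tumour necrosis factor induce them through STAT3, C/EBP and NF-kappaB factors. Saa3 is induced mainly outside hepatocytes, for example in macrophages, adipocytes and epithelium, and Saa4 encodes the isoform that the liver makes constitutively.

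The 4 genes lie side by side on mouse chromosome 7. In the RefSeq annotation of build GRCm38.p6, Saa3 spans 46711998 to 46719615, Saa4 spans 46727992 to 46732603, Saa1 spans 46740497 to 46743181 and Saa2 spans 46751833 to 46754313. RefSeq lists Saa2 as a synonym of Saa1 and Saa1 as a synonym of Saa2, so older annotation may exchange the names of these 2 genes. The RefSeq sequences of the 250 bases before each gene's start are shown because the genes moved apart from one another in the arrays. Capitals mark matches on either strand to TTNNGNAA, a core of C/EBP sites. The mice were BALB/c, whereas the reference assembly is of another strain.
Saa1, chr7:46742981-46743230, minus strand: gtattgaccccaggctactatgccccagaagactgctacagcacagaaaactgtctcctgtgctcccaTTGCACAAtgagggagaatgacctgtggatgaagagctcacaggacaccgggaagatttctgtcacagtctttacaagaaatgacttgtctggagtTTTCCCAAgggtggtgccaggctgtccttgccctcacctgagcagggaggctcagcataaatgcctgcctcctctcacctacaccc
Saa2, chr7:46751583-46751832, plus strand: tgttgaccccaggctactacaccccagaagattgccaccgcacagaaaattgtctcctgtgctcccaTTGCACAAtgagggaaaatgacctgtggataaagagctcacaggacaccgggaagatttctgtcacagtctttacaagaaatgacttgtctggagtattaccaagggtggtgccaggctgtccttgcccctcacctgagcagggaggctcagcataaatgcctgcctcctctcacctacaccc
Saa3, chr7:46715677-46715926, minus strand: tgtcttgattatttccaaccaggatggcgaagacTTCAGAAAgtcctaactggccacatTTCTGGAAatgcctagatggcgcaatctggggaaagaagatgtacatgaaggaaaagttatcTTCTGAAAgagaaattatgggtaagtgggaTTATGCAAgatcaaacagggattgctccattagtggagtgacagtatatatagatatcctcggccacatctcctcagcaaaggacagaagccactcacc
Saa4, chr7:46732604-46732853, minus strand: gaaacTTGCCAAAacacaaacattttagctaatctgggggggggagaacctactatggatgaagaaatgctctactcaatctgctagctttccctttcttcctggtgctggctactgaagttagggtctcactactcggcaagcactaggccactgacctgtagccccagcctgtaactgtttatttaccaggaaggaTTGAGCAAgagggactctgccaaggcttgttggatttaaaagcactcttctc
For Saa1 and Saa3 the annotated gene span, which includes other transcript models, reaches past the start used here, so those windows overlap the span. The windows of Saa1 and Saa2 were nearly the same sequence, with 238 of 249 aligned bases identical (95.6%). The other pairs had 63.5 to 70.8% identity over their aligned bases.

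TTNNGNAA matched 2 times before Saa1, 1 time before Saa2, 4 times before Saa3 and 2 times before Saa4, with no overlap between matches. The match nearer to the Saa1 start, 86 to 79 bases before it, has no counterpart in Saa2, while the one at 182 to 175 bases recurs in Saa2 at 183 to 176 bases. Such matches are frequent, and 36.8% of 32851 RefSeq promoter windows of the same length held TTNNGNAA. The NF-kappaB consensus (in 7.3% of windows), TTCNNNGAA, a core of STAT sites (in 7.0%), and TATAAA (in 12.4%) were in none of the 4 windows on either strand, which says only that these letters are not there. The NF-kappaB result depends on the letters chosen: a looser form, GGG and CC with any 5 bases between, was searched first and matched 1 time each before Saa1, Saa2 and Saa4 and 0 times before Saa3, in 45.8% of all windows. The consensus replaced it after that result was seen.

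Tissue labels fitted their markers. Between 13 and 14 of 14 hepatocyte genes were above background on each liver array, and all 10 alveolar and airway epithelial genes on each lung array. Neither list was confined to its tissue. On sham CD lung arrays 10 to 11 of the 14 hepatocyte genes were above background, and on liver arrays 2 of the 10 epithelial genes. In liver, 40.4 to 41.5% of probes were above background on 4T1 arrays, against 34.0 to 36.1% on sham arrays. In lung the share was 42.97 to 44.8% on 4T1 arrays, against 51.0 to 52.4% on sham arrays. Normalisation by quantiles gives all arrays of a tissue the same distribution, so each change below is relative to the other transcripts. In bulk tissue, more cells of a type and more RNA per cell cannot be told apart.

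Above-background signal (detection p under 0.05) marked out where the family could be measured. In liver Saa1 (ILMN_2768154), Saa3 and Saa4 were above background on all 12 arrays. The other Saa1 probe was so on 10 liver arrays, 6 of them 4T1 and 4 sham. Saa2 was above background on 7 liver arrays, namely all 6 4T1 arrays and 1 sham array. In lung Saa3 passed on 12 arrays, Saa4 on 10, ILMN_2768154 of Saa1 on 8, ILMN_2826869 on 3 and Saa2 on none. All 5 probes thus passed the filter of 3 arrays in liver, and 4 passed in lung. The brightest Saa signal, 23482 for Saa1, was 33.9% of the highest signal on its array.

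In the liver, 3 of the 4 genes were called higher after 4T1 injection on each diet, Saa2 from sham levels mostly below background. Saa1, a classical acute phase isoform, had raw intensities of 13192, 23482 and 17082 in 4T1 HFD livers, against 1672, 909.8 and 2018 in sham HFD livers. Mice on the control diet gave Saa1 values of 13889, 17612 and 13178 in 4T1 livers, against 3798, 1803 and 1297 in sham livers. Every 4T1 array was above every sham array, on both diets. The share of all genes with no overlap between such groups was not counted, so absence of overlap is a description here and below. Normalised log2 intensity of Saa1 averaged 13.83 ± 0.46 in 4T1 HFD livers and 10.88 ± 0.66 in sham HFD livers (SD, n = 3 each). It averaged 13.48 ± 0.23 in 4T1 CD livers and 11.26 ± 0.59 in sham CD livers (SD, n = 3 each). The log2 change of Saa1 was 2.95 ± 0.37 (SE) on the high-fat diet, a 7.73-fold rise (limma adjusted p = 0.00012). On the control diet it was 2.23 ± 0.37, a 4.68-fold rise (limma adjusted p = 0.000802).

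The second Saa1 probe, ILMN_2826869, was far dimmer and moved the same way. Its raw intensities were 398, 625 and 489 in 4T1 HFD livers, against 225, 195 and 259 in sham HFD livers, and 439.8, 512 and 398 in 4T1 CD livers, against 284, 235 and 195 in sham CD livers. In a fit over all kept probes its log2 change was 1.93 ± 0.47 on the high-fat diet (limma adjusted p = 0.00705) and 1.63 ± 0.47 on the control diet (limma adjusted p = 0.0185). Within the 6 sham livers the 2 Saa1 probes followed one another array by array, with Pearson's r = 0.94 (exact permutation p = 0.00139, 0.0278 after adjustment over 20 such relations among family probes) and Spearman's rho = 1 (exact permutation p = 0.00278, adjusted 0.0556). Without the 2 arrays farthest from the median, r was 0.99.

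Saa2, the second acute phase isoform, had raw intensities of 290.2, 468 and 332 in 4T1 HFD livers, against 202, 193 and 208 in sham HFD livers. Its control diet values were 352, 411 and 299 in 4T1 livers, against 220.4, 200.1 and 176 in sham livers. The groups did not overlap on either diet, but only the 220.4 array among the sham livers was above background. Saa2 rose by at least 3.36-fold on the high-fat diet (limma adjusted p = 0.00043), where the sham mean is a bound set by background, with measured log2 means of 7.36 in 4T1 and 5.23 in sham livers. On the control diet Saa2 also passed the test (limma adjusted p = 0.000419), but the size of the change is uncertain, since 1 of 3 sham arrays was above background. The log2 mean of Saa2 was 7.39 in 4T1 CD livers and 5.17 in sham CD livers as measured, or 5.66 in sham CD livers with dim arrays raised to the lowest above-background signal. The Saa2 probe passed the filter through the 4T1 livers, where it is high, so its test is no support apart from that filter. On the authors' deposited log2 values, which carry no background correction, the change of Saa2 was 0.79 on the high-fat diet and 0.81 on the control diet, still past the threshold. Probe sequences were not used here, so how far Saa1 and Saa2 transcripts share signal was not tested.

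Saa4, the constitutive isoform, had a smaller error in the liver fit (SE 0.13) than the other members, although Saa3 varied less in 4T1 CD livers (an SD of 0.13, against 0.16 for Saa4). Raw intensities were 13059.5, 13886 and 15664 in 4T1 HFD livers, against 3041, 3664 and 4300.5 in sham HFD livers. With the control diet, Saa4 had 17337, 15643 and 13178 in 4T1 livers, against 6399.6, 4925 and 3548 in sham livers. Again all 4T1 arrays lay above all sham arrays. The log2 change of Saa4 was 1.23 ± 0.13 on the high-fat diet (2.35-fold, limma adjusted p = 3.72e-05) and 1.05 ± 0.13 on the control diet (2.07-fold, limma adjusted p = 0.00012).

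These 3 rises stand against a background in which many liver genes moved. Of 10904 genes tested in liver, 21% were called higher on the high-fat diet and 20.5% on the control diet (26.1% when averaged over diets). Of the liver genes called in either direction, 43.1% were higher on the high-fat diet and 47.3% on the control diet. Under median scaling in place of quantiles those shares were 98.2% and 97.3%, and the median of all liver genes shifted by 0.73 on the high-fat diet and 0.66 on the control diet. Against those shifts, Saa1 changed by 3.72 and 2.93 and Saa4 by 1.98 and 1.68 on that scale, all past the threshold, as was Saa2.

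**Figure D1:**
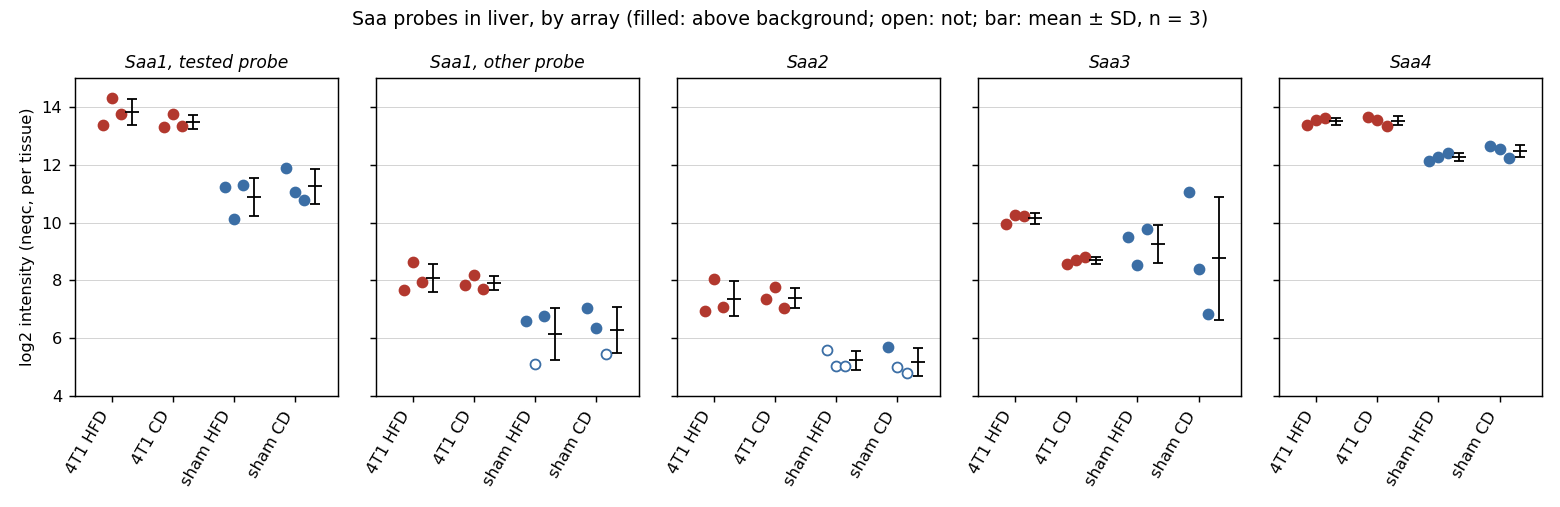
Normalised log2 intensity of the 5 Saa probes on each liver array, by group, with the mean ± SD of 3 arrays beside the points; open points were not above background. For both Saa1 probes, Saa2 and Saa4 every 4T1 point lies above every sham point of the same diet, while Saa3 spreads most widely in sham CD livers.

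Saa3, the isoform made mainly outside hepatocytes, behaved differently in liver. Its raw intensities were 1398, 1605 and 1713 in 4T1 HFD livers, against 610.1, 405 and 810.2 in sham HFD livers. In control diet mice Saa3 had 643, 672 and 712 in 4T1 livers, against 2108, 406 and 231 in sham livers. The 4T1 arrays were thus tightly grouped within each diet, and sham CD array 1 was the highest of all 12 liver arrays. Without overlap between groups on the high-fat diet, the log2 change of Saa3 there was 0.88 ± 0.79 (SE) and did not pass the test (limma adjusted p = 0.382). On the control diet, where the groups overlapped, it was -0.07 ± 0.79 (limma adjusted p = 0.956). The spread of the sham CD livers, an SD of 2.13 on the log2 scale against 0.13 in 4T1 CD livers, enters the error of every Saa3 comparison in liver.

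Sham CD array 1 also carried the highest Saa1 and Saa4 among the sham livers. Its summed level of 26 listed acute phase genes other than SAA (22 on the array) was 406806, against 375581 and 355509 on the other sham CD arrays. Its neutrophil list, with 4 of 14 genes above background, summed to 394, against 398 and 448. The part of these levels in the Saa3 value was not tested. Without sham CD array 1, the control diet change of Saa3 was 1.07 (limma adjusted p = 0.0697), and the change averaged over diets was 0.97 (limma adjusted p = 0.0158), against 0.41 (limma adjusted p = 0.551) with all arrays. Median scaling gave 0.77 on the control diet (limma adjusted p = 0.384), 1.78 on the high-fat diet (limma adjusted p = 0.051) and 1.27 averaged over diets (limma adjusted p = 0.046).

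**Figure D2:**
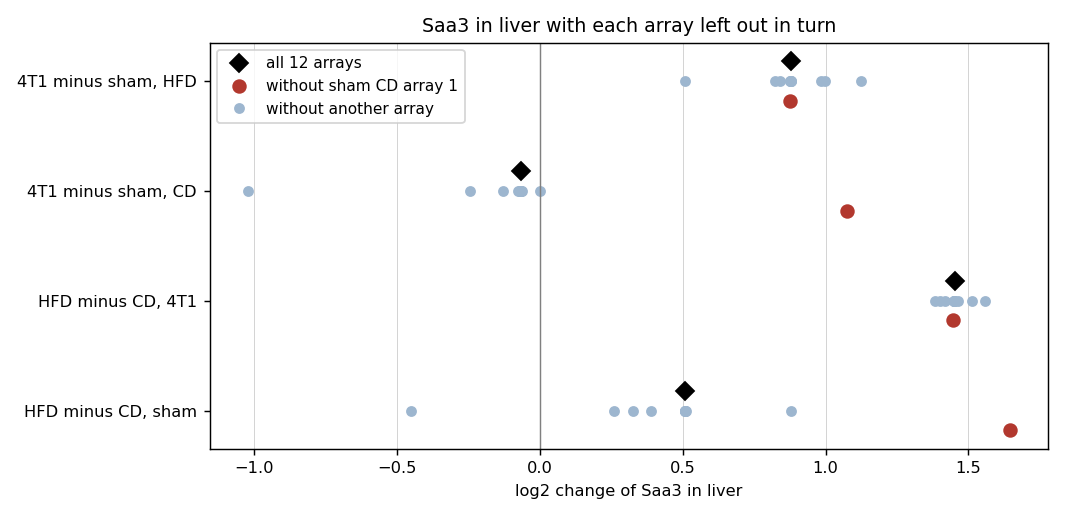
Log2 change of Saa3 in liver in 4 comparisons, with all 12 arrays (diamonds) and with each array left out in turn (circles). Without sham CD array 1 the control diet injection change is 1.07 and the sham diet change 1.65, the right-hand end of both rows.

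In the lung Saa3 was the only member called, and it rose on both diets. Raw intensities of Saa3 were 4975, 5658 and 4486 in 4T1 HFD lungs, against 825, 912 and 667 in sham HFD lungs. Control diet values were 5544, 6630.0 and 5238 in 4T1 lungs, against 1386, 923 and 724 in sham lungs. No 4T1 array came near the sham range. Normalised log2 intensity of Saa3 averaged 12.35 ± 0.15 in 4T1 HFD lungs and 9.24 ± 0.27 in sham HFD lungs, and 12.53 ± 0.17 in 4T1 CD lungs and 9.57 ± 0.54 in sham CD lungs (SD, n = 3 each). The log2 change was 3.11 ± 0.23 (SE) on the high-fat diet, an 8.62-fold rise (limma adjusted p = 1.36e-06), and 2.96 ± 0.23 on the control diet, a 7.79-fold rise (limma adjusted p = 2.12e-06).

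Saa1 in lung lay close to background. ILMN_2768154 had 172, 320.1 and 210.2 in 4T1 HFD lungs, against 166, 180.2 and 178 in sham HFD lungs, and 206, 248 and 209 in 4T1 CD lungs, against 195, 159.6 and 184 in sham CD lungs. In each of these groups 2 of the 3 arrays were above background. The log2 change of Saa1 in lung was 0.86 ± 0.49 on the high-fat diet (limma adjusted p = 0.161) and 0.67 ± 0.49 on the control diet (limma adjusted p = 0.269). Without 4T1 HFD array 1 the high-fat diet change was 1.40 (limma adjusted p = 0.0217), whereas ILMN_2826869 changed by 0.07 there (limma adjusted p = 0.803). Saa2, at 154 to 185 in 4T1 lungs and 130.4 to 167 in sham lungs, was not above background on any lung array, so no fold can be given.

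Saa4 in lung was also dim, with 148, 207 and 222 in 4T1 HFD lungs, against 207, 220.1 and 256 in sham HFD lungs. On the control diet it had 239, 266 and 159 in 4T1 lungs, against 236, 262 and 270.4 in sham lungs. All 6 sham arrays and 4 of the 6 4T1 arrays were above background, with 1 below in each 4T1 group. The log2 change was -0.65 ± 0.47 on the high-fat diet (limma adjusted p = 0.271) and -0.61 ± 0.47 on the control diet (limma adjusted p = 0.3). Averaged over diets it was -0.63 (limma adjusted p = 0.12), with -0.83 (limma adjusted p = 0.0462) without 4T1 CD array 2 and -0.92 (limma adjusted p = 0.011) under median scaling, where the median lung gene fell by 0.50 on the control diet and by 0.48 on the high-fat diet. The hepatocyte list moved alongside, summing to 3022 to 9048 in 4T1 HFD lungs, against 11557 to 18233 in sham HFD lungs, and to 5196 to 12140 in 4T1 CD lungs, against 23258 to 27043 in sham CD lungs. Between 5 and 10 of its 14 genes were above background on 4T1 lung arrays and 10 or 11 on sham lung arrays. Albumin was above background on 1 of 12 lung arrays, a sham one, and Cyp2c29, Fgb and Tat on none. By contrast, Ahsg, Cps1, Cyp2e1, Mup2 and Ttr of the same list were above background on all 12. The part of these transcripts in Saa4 was not tested.

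Of the 3 Saa genes tested in lung, 1 was called higher and none lower on each diet. Over all 12746 lung genes, 22.6% were called higher on the high-fat diet and 20.6% on the control diet (25.8% when averaged over diets). Among the lung genes called, 41.9% were higher on the high-fat diet and 39.0% on the control diet, against 12.8% and 12.0% under median scaling.

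**Figure D3:**
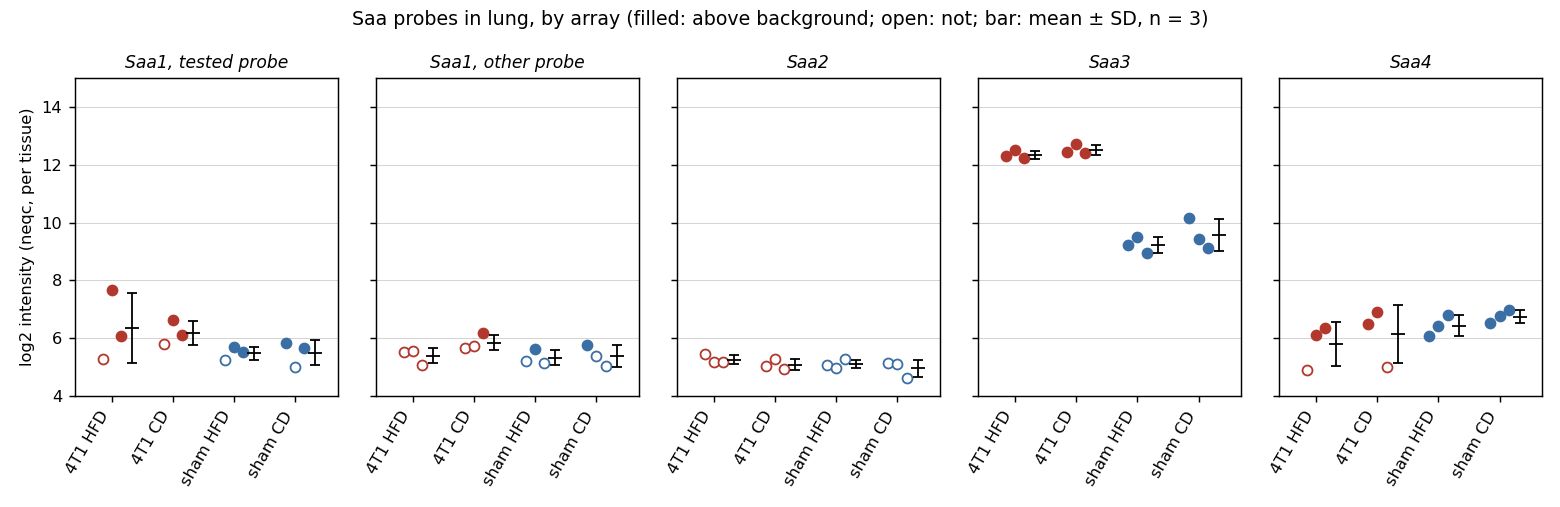
Normalised log2 intensity of the 5 Saa probes on each lung array, by group, with the mean ± SD of 3 arrays beside the points; open points were not above background. Saa3 averages 12.35 and 12.53 in 4T1 lungs and 9.24 and 9.57 in sham lungs, and the other 4 probes lie between 4 and 8 on the log2 scale.

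Neutrophil transcripts moved with the Saa changes in both tissues. The list of 14 neutrophil genes summed to 99717 to 115450 in 4T1 HFD livers, against 393 to 649 in sham HFD livers, and to 88324 to 98206 in 4T1 CD livers, against 394 to 448 in sham CD livers. On every 4T1 liver array 13 of the 14 genes were above background, against 2 to 5 on sham liver arrays, and Camp, Ctsg, Cxcr2, Mpo, Ngp and Stfa2 were above background on no sham liver array. In lung the list summed to 336598 to 362030 in 4T1 HFD lungs, against 23730 to 27979 in sham HFD lungs, and to 345206 to 357244 in 4T1 CD lungs, against 19365 to 21377 in sham CD lungs. Hepatocyte genes in liver summed to 300169 to 311632 on 4T1 arrays, against 283589 to 307531 on sham arrays. Other cell type lists moved as well. Macrophage and monocyte genes, from cells known to make Saa3, summed to 13003 to 13416 in 4T1 HFD livers, against 9580 to 11104 in sham HFD livers, and to 13353 to 14902 in 4T1 CD livers, against 9328 to 9966 in sham CD livers. Of 9 measured in liver, 6 were called higher on the high-fat diet and 7 on the control diet, with none lower. Ccr2 and Marco passed the filter only through 4T1 livers, so their part of these counts is no support apart from that filter. Over all liver genes the shares on the high-fat and control diet were 21% and 20.5% higher, and 27.7% and 22.8% lower. In lung they summed to 21636 to 23862 on 4T1 arrays, against 17727 to 21172 on sham arrays, with 3 of 9 higher on each diet and 2 and 3 lower on the high-fat and control diet. Over all lung genes 22.6% and 20.6% were higher and 31.3% and 32.2% lower, so these lung counts are not read as a change of the list. Alveolar and airway genes in lung summed to 177281 to 194631 on 4T1 arrays, against 223676 to 235657 on sham arrays. Of 10 measured, 8 were lower on the high-fat diet and 7 on the control diet, with 1 higher on each, beside the 31.3% and 32.2% of all lung genes lower. Adipocyte genes in lung summed to 9297 to 13785 on 4T1 arrays, against 13840 to 19357 on sham arrays.

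The list of 8 simple epithelial and mammary carcinoma genes summed to 10812 to 12299 in 4T1 HFD livers, against 6749 to 8886 in sham HFD livers, and to 9894 to 10905 in 4T1 CD livers, against 8330 to 8637 in sham CD livers. Of 6 measured in liver, 2 were called higher on the high-fat diet and 3 on the control diet, with none lower. With so few genes, and with 21% and 20.5% of all liver genes called higher, these counts are not read as a change of the list. Krt7 was above background on 6 liver arrays, 1 of them sham, and Krt14 on 3, none sham. Epcam and Krt19 were above background on no liver array, and Epcam on no lung array either. In lung the list summed to 56129 to 59590 on 4T1 arrays, against 70997 to 76717 on sham arrays. The part of these cell types in the Saa values was not tested.

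The tissues differed in which member was called. In a joint fit of all 24 arrays, the injection effect averaged over diets was 3.26 in lung and 0.37 in liver for Saa3, a difference of 2.89 ± 0.57 (SE, limma adjusted p = 0.000305). For Saa1 the effect was 0.61 in lung and 2.26 in liver, a difference of -1.65 ± 0.39 (limma adjusted p = 0.00164). Saa4 had -0.50 in lung and 0.99 in liver, a difference of -1.49 ± 0.30 (limma adjusted p = 0.000333). Saa1, Saa3 and Saa4 were thus called in this comparison, where 55.2% of the 13386 genes were. For Saa1 and Saa4, above background on 8 and 10 of 12 lung arrays and dim there, the size of the difference is uncertain. Saa2 was not above background on any lung array and on 1 sham liver array, so no tissue difference was measured for it. Under median scaling the Saa3 difference was 1.33 (limma adjusted p = 0.0605), while the median gene moved by -1.03 and the share of called genes with a higher injection effect in lung was 6.59%, against 48.2% with quantiles.

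The order of levels, on the jointly normalised log2 scale, gives the same split. For Saa1 the highest level was in 4T1 HFD livers (13.95 ± 0.42), then 4T1 CD livers (13.64 ± 0.21), sham CD livers (11.70 ± 0.51) and sham HFD livers (11.37 ± 0.57, SD, n = 3 each). All lung groups of Saa1 lay at 5.25 to 5.96. Saa4 followed a like order, at 13.68 ± 0.13 in 4T1 CD livers, 13.66 ± 0.11 in 4T1 HFD livers, 12.77 ± 0.19 in sham CD livers and 12.59 ± 0.12 in sham HFD livers, with lungs at 5.48 to 6.25. Saa2 was at 8.26 ± 0.32 in 4T1 CD livers and 8.25 ± 0.55 in 4T1 HFD livers, and its sham livers lay at 5.62 and 5.72, mostly below background. In none of these did the diets of an injection differ by more than their spread in liver.

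Saa3 began with lung instead. Its levels were 12.25 ± 0.19 in 4T1 CD lungs and 12.04 ± 0.16 in 4T1 HFD lungs, followed by 10.74 ± 0.16 in 4T1 HFD livers and 9.96 ± 0.59 in sham HFD livers. Sham CD livers (9.49 ± 1.89), 4T1 CD livers (9.43 ± 0.11), sham CD lungs (9.06 ± 0.57) and sham HFD lungs (8.72 ± 0.29) came last, and neighbours among these 4 did not differ by more than their spread. Nor did sham HFD and sham CD livers.

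The study's own question was the effect of diet within an injection. No Saa gene passed the test for diet in either tissue, in sham or 4T1 mice, or for the diet by injection interaction. The share of all genes called was 11.2% for diet in sham livers and 0.303% in 4T1 livers, and 0.945% for the liver interaction. Of those called, 54.0% were higher in sham HFD livers and 51.5% had a positive liver interaction, against 20.7% and 75% under median scaling. In lung it was 1.67% in sham lungs and 0.0863% for the interaction, and no gene was called for diet in 4T1 lungs by limma (1436 had an unadjusted p under 0.05, and 2 were called on the deposited values). Confidence intervals of the diet effect (95%) in 4T1 livers ran between -0.46 and 1.15 for Saa1, -0.74 and 0.70 for Saa2, and -0.30 and 0.26 for Saa4 on the log2 scale. For Saa3 in 4T1 lungs the interval lay between -0.70 and 0.33. The interaction of Saa1 in liver, the injection change on the high-fat diet minus that on the control diet, was 0.72 ± 0.52 (SE, limma adjusted p = 0.577).

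Saa3 in 4T1 livers was the member with the largest diet difference. All 3 HFD arrays (1398 to 1713) lay above all 3 CD arrays (643 to 712), with log2 means of 10.15 ± 0.18 and 8.70 ± 0.13 (SD, n = 3 each). The difference of 1.45 ± 0.79 (SE) did not pass in the fit of all liver groups (limma adjusted p = 0.654). In a fit of those 6 arrays alone, which leaves out the variable sham livers, the same difference had a limma adjusted p of 0.00219. That fit called 104 genes, against 33 in the fit of all liver groups. The dim Saa1 probe ILMN_2826869 also had no overlap by diet, in 4T1 lungs, with a change of -0.45 (limma adjusted p = 0.478). In sham livers the Saa3 diet difference was 0.51 ± 0.79 (limma adjusted p = 0.74), and 1.65 (limma adjusted p = 0.0455) without sham CD array 1. Macrophage and monocyte markers, as cells that make Saa3, summed to 13003 to 13416 in 4T1 HFD livers, against 13353 to 14902 in 4T1 CD livers. These groups overlapped. Adipocyte genes, with 2 to 4 of 7 above background in 4T1 HFD livers, summed to 1387 to 1656 there, against 1100 to 1344 in 4T1 CD livers. Those sums did not overlap, although the mean log2 levels of the list did. Neutrophil genes summed to 99717 to 115450, against 88324 to 98206, also without overlap. Sums of the hepatocyte, alveolar and airway, and simple epithelial lists overlapped. The part of these cell types in the Saa3 diet difference was not tested.

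**Figure D4:**
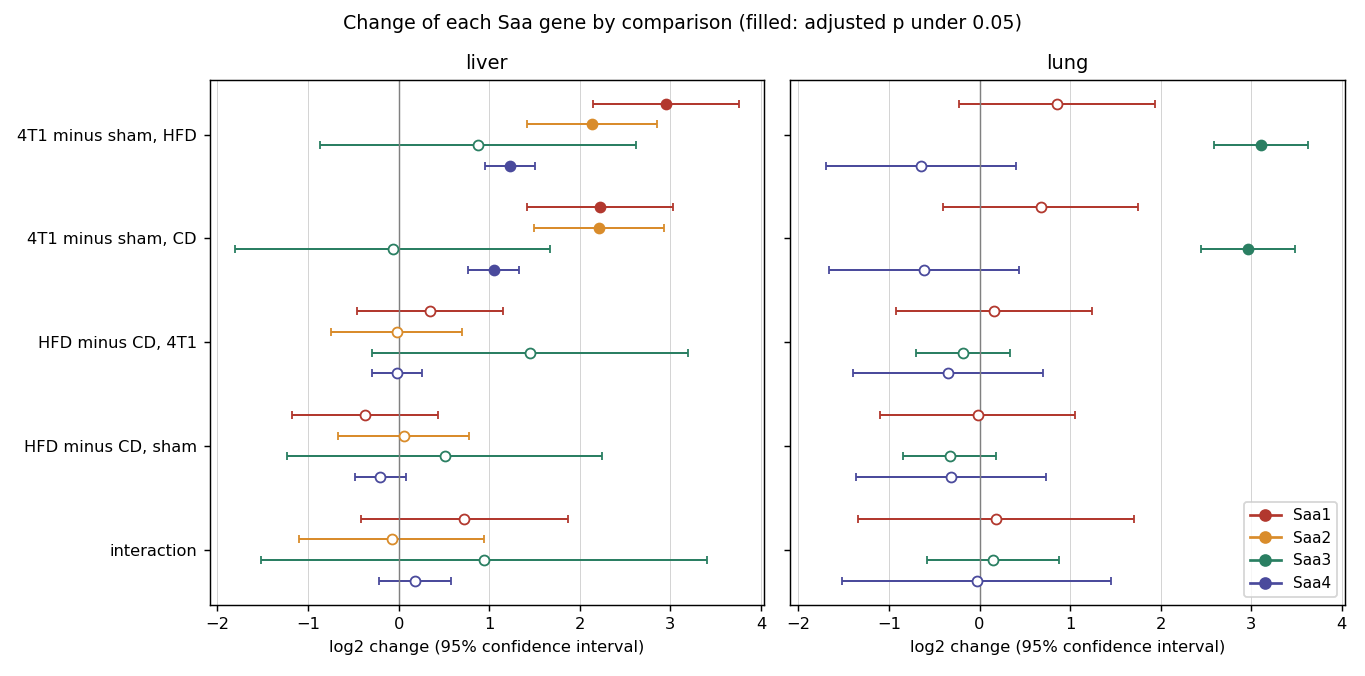
Log2 change of each Saa gene with its 95% confidence interval for 5 comparisons in liver and lung; filled points passed an adjusted p of 0.05. Saa1, Saa2 and Saa4 are filled for injection in liver and Saa3 for injection in lung, and every diet and interaction point is open.

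Other acute phase genes rose with Saa1, Saa2 and Saa4 in liver. Over all genes, the shares called lower after injection were 27.7% (high-fat) and 22.8% (control diet) in liver and 31.3% and 32.2% in lung, beside the 21% and 20.5% in liver and 22.6% and 20.6% in lung called higher. Of 26 positive acute phase genes listed, 21 were measured, and 18 rose and 0 fell after 4T1 injection on each diet. Their median log2 change was 0.67 on the high-fat diet and 0.68 on the control diet, against -0.06 and -0.03 over all genes. Among the measured genes, Steap4 passed the filter only through 4T1 livers. Lcn2, the siderophore-binding lipocalin 2, rose by 3.55 and 2.50 on the high-fat and control diet, and Orm2, an orosomucoid, rose by 3.45 and 2.48. Lbp, the lipopolysaccharide-binding protein, rose by 2.05 and 1.56. In lung 19 were measured, of which 6 were called higher and 2 lower on the high-fat diet, and 5 and 2 on the control diet, shares of higher calls near those of all lung genes. Lcn2 rose there by 3.16 and 2.73 and Lrg1, a leucine-rich glycoprotein, by 2.52 and 2.66, whereas Hamp, which encodes hepcidin, had log2 changes of -1.92 and -1.56. Hepatocyte transcripts also fell on the 4T1 lung arrays, and their part in the Hamp change was not tested.

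Among 15 cytokine and receptor genes that lead to SAA induction, 12 were measured in each tissue. In liver 5 were higher and 0 lower on the high-fat diet, and 4 higher and 1 lower on the control diet, against 21% and 20.5% higher over all genes. Osm, Il6st and Tnf passed the filter only through 4T1 livers, so their part of these counts is no support apart from that filter. Il1b, interleukin-1 beta, rose by 1.66 and 1.75 in liver, and Osm, the interleukin-6 family cytokine oncostatin M, by at least 2.49-fold and 2.43-fold, since no sham liver array was above background. Il6st, the shared receptor subunit of that family, had log2 changes of 1.17 and 0.83, both past the threshold, but was not above background on any sham liver array. Its bound was at least 1.07-fold on the high-fat diet, and none can be given on the control diet. In lung 8 rose and 1 fell on each diet, against 22.6% and 20.6% higher over all genes, with Il1b up by 3.39 and 3.95, Osm by 3.13 and 3.38, and Il1rn, the interleukin-1 receptor antagonist, by 1.56 and 1.87. Il6 itself was above background on 5 of 12 liver arrays, 3 of them sham, and on no lung array.

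Of 15 signalling and transcription factor genes listed, 12 were measured in each tissue. Their median log2 change was 0.30 and 0.35 in liver on the high-fat and control diet, and 0.17 and 0.13 in lung. Medians over all genes were -0.06 and -0.03 in liver, and -0.08 and -0.09 in lung. In liver the high-fat diet gave 6 higher and 1 lower, and the control diet 7 higher and 0 lower. Among all liver genes 21% and 20.5% were higher and 27.7% and 22.8% lower. Socs3, the feedback inhibitor of STAT3 signalling, rose by 1.63 and 2.10 in liver, Stat3 by 1.42 and 1.34, and Nfkbiz, an NF-kappaB cofactor, by 0.75 and 0.55. In lung the counts were 6 higher and 2 lower on the high-fat diet, and 6 higher and 1 lower on the control diet, led by Socs3 (1.91 and 2.27), Myd88, the adaptor of Toll-like and interleukin-1 receptors (1.50 and 1.59), and Cebpb (0.53 and 0.38). Among all lung genes 22.6% and 20.6% were higher and 31.3% and 32.2% lower.

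Of 8 receptors listed that bind SAA, 5 were measured in liver, and 3 rose on the high-fat diet and 2 on the control diet, with none lower. With so few members, and with 21% and 20.5% of all liver genes called higher, these counts are not read as a change of the list. Fpr2, the formyl peptide receptor through which SAA attracts neutrophils and monocytes, rose by 3.03 and 2.77 in liver and by 2.76 and 2.75 in lung. Tlr4 rose by 0.39 and 0.32 in liver, and Tlr2 by 1.25 and 1.24 in lung. Of 7 receptors measured in lung, 4 were higher and 2 lower on the high-fat diet, and 3 higher and 2 lower on the control diet, where 22.6% and 20.6% of all lung genes were higher and 31.3% and 32.2% lower. Cd36, a scavenger receptor, fell by at least 1.40-fold and 1.12-fold in lung, where no 4T1 array was above background. HDL genes, which encode the particle that carries SAA, gave 4 of 10 higher on the high-fat diet and 2 higher and 1 lower on the control diet in liver. Averaged over diets 6 of the 10 were higher and 1 lower, where 26.1% of all liver genes were higher and 32.7% lower. Abcg1, a cholesterol exporter, rose there by 0.59 and 0.65, and Apoc1 by 0.27 and 0.29. In lung 1 of 10 was higher and 5 lower on the high-fat diet, and 1 higher and 7 lower on the control diet. Apom, an HDL apolipoprotein, rose there by 1.58 and 1.44, while Apoa2 had log2 changes of -1.78 and -1.61, and Pltp, the phospholipid transfer protein, of -0.85 and -0.90. Hepatocyte genes fell in lung as well, with 9 of 10 measured lower and 0 higher on each diet. Of these genes, Cyp3a11, Mup6 and Serpina1a passed the filter only through sham lungs. The part of hepatocyte transcripts in these HDL changes was not tested.

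For diet, few of these genes passed, and the genes in this paragraph were named after their values were seen. In sham livers 3 of the 21 acute phase genes fell on the high-fat diet and 0 rose, a share near the 11.2% of all genes called there. They were Orm1 (-1.05, limma adjusted p = 0.000272), Mt1 (-0.99, limma adjusted p = 0.000302) and Mt2 (-1.56, limma adjusted p = 0.0452), of which Mt1 and Mt2 encode metallothioneins. Cebpb (-0.93, limma adjusted p = 0.000596) and Nfkbiz (-0.49, limma adjusted p = 0.0331) fell there among the 12 signalling genes, Il1rn (-1.62, limma adjusted p = 0.00349) among the 12 cytokine genes and Pltp (-1.23, limma adjusted p = 0.00397) among the 10 HDL genes. Pltp was above background on 1 of 3 sham HFD livers, Il1rn on 2 of 3, and Mt2 on 4 of the 6 sham livers. The sizes of these 3 changes are therefore uncertain. In sham lungs Il1b rose by 0.57 (limma adjusted p = 0.0286), where 1.67% of all genes were called. The liver interaction was positive for Orm1 (0.93, limma adjusted p = 0.0320), Mt1 (0.86, limma adjusted p = 0.0347) and Cebpb (0.81, limma adjusted p = 0.0491), where 0.945% of all genes were called. In 4T1 livers and 4T1 lungs none of the pathway genes passed for diet by limma.

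Genes whose levels followed a member most closely were picked by Pearson's correlation over the 12 arrays of a tissue, as a description. In liver the 5 most like Saa1 were Sec63, Orm2, Ifi27l2a, Bloc1s1 and Myo1f (r = 0.98 to 0.99), and Saa4 was most like Arpc2, Cpn2, Gm6548, Ddost and Eef1b2 (r = 0.99). Those most like Saa2 were Bgn, Zfp710, Map7d1, Hsp90b1 and Rpl12 (r = 0.97 to 0.98). Saa3 in liver was not called for injection on either diet. It was most like Cyp2d12 (r = 0.95), H2-Eb1, Slc25a3, Gbp10 and Neu3 (r = 0.88 for each of the last 4). In lung Saa3 was most like Oas3, Flot1, Ccdc28b, Lcn2 and Dhx38 (r = 0.99), and Saa4 most like Nemf, Ndufa4, Prodh2, Pemt and Itih1 (r = 0.88). The 12 arrays share injection status in sets of 6, and within the 6 4T1 lungs r between Saa3 and Lcn2 was -0.31, against 0.85 within the 6 sham lungs.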

How the data were processed

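RNA of 12 liver and 12 lung samples was hybridised to Illumina mouse arrays. The files hold, as deposited, an intensity and a detection p-value for each probe, with neither normalisation nor background correction evident in the values. GenomeStudio 2009.2 is named in the submitters' processing notes. The authors' deposited log2 values matched a quantile normalisation of those intensities within each tissue, without background correction, within 0.01 for 99.99972% of values (3 were beyond), so they are on a log2 scale and uncentred, with a median of 7.47 on each liver and 7.53 on each lung array.

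Per tissue, intensities were background-corrected and quantile-normalised with limma 3.58.1 (neqc, offset 16, background estimated from detection p) in R 4.3.3. Probes above background (detection p under 0.05) on at least 3 arrays were kept, and a gene was represented by its brightest kept probe. Of the probes, 34885 had 1 symbol, 18 several and 10378 none. The 4 groups of a tissue were fitted together with limma, p-values were adjusted by Benjamini-Hochberg over all genes, and the threshold was 0.05. Tissue differences came from a joint fit of all 24 arrays with the same filter. A group with no array above background received a bound set by the lowest above-background signal. Such a bound holds for the group mean and does not cover the spread between arrays. Of these steps, only the limma fit of injection on the control diet was run on simulated data, in each tissue. No slide or batch was named, and no 2 arrays held identical values.

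The family, the pathway lists and the tests were chosen with earlier results of these data known. Genes named from a list are the 3 with the largest averaged injection change among those called on both diets. Promoter sequences are RefSeq's for GRCm38.p6, aligned with Biopython 1.88.

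Alternatives were the deposited values, median scaling, no filter, a stricter filter, the other Saa1 probe, the compared groups alone, a replicate block and each array left out. Replicate numbers gave no consistent pairing: same-numbered arrays correlated by -0.13 to 0.05 in liver and -0.18 to 0.29 in lung. Between the lung and liver arrays of a group the correlations were -0.02 to 0.07. The labels do not say whether lung and liver came from the same mice, and the joint fit treated all arrays as separate.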

Additional observations from a re-analysis of the deposited data

Results flagged for a closer look

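The injection effect of Saa1, Saa3 and Saa4 differed between lung and liver, by a limma test of the difference itself in a joint fit of 24 arrays. The difference, lung minus liver and averaged over diets, was 2.89 for Saa3 (limma adjusted p = 0.000305), with the larger rise in lung. It was -1.65 for Saa1 (limma adjusted p = 0.00164) and -1.49 for Saa4 (limma adjusted p = 0.000333), with the higher value in liver for each. Saa1 and Saa4 lay close to background in lung, above it on 8 and 10 of 12 arrays, so the size of these 2 differences is uncertain. In the same comparison 55.2% of genes were called. The fit also gave -2.47 for Saa2, but that gene was not above background on any lung array and on 1 sham liver array, so this value is no measured difference.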

How the results depend on the processing

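Every call made for a Saa gene kept its direction and its side of the threshold in each alternative run and with each array left out, except the tissue difference of Saa3, which was 1.33 (limma adjusted p = 0.0605) under median scaling. Median scaling also gave 0.77 for Saa3 in liver on the control diet and 0.014 for the lung interaction of Saa4. The other Saa1 probe gave -0.39 for the lung interaction and -0.45 for diet in 4T1 lungs. Deposited values gave diet differences of 0.00403 for Saa1 in sham lungs and 0.00234 for Saa2 in 4T1 livers. With only the compared groups, Saa3 differed by diet in 4T1 livers by 1.45 (limma adjusted p = 0.00219).

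Leaving out 1 array each gave these ranges of log2 change for results that were not called. For Saa1 they were 0.20 to 1.40 for injection in lung on the high-fat diet, 0.44 to 1.04 averaged over diets in lung (limma adjusted p = 0.00986 without 4T1 HFD array 1), -0.48 to 0.72 for the lung interaction, -0.51 to 0.70 for diet in 4T1 lungs, -0.61 to 0.00550 in sham livers and -0.26 to 0.15 in sham lungs. For Saa2 in liver they were -0.43 to 0.13 for the interaction, -0.37 to 0.18 for diet in 4T1 and -0.14 to 0.33 in sham mice. For Saa3 they were -1.02 to 1.07 in liver for injection on the control diet, -0.074 to 0.97 averaged over diets, -0.20 to 1.90 for the liver interaction, -0.15 to 0.38 for the lung interaction and -0.45 to 1.65 for diet in sham livers. For Saa4 they were -0.83 to -0.35 for injection averaged over diets in lung, -0.61 to 0.41 for the lung interaction, -0.10 to 0.053 for diet in 4T1 livers and -0.93 to 0.090 in 4T1 lungs. The cause of these shifts was not tested.

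Counts of genes called after injection were 5319 (HFD) and 4723 (CD) in liver and 6873 and 6736 in lung, 8881, 8443, 10364 and 10458 under median scaling, and 4484 to 5527, 3748 to 4861, 5968 to 6922 and 5739 to 6843 with an array left out. The tissue difference called 7384 genes, 11738 under median scaling and 7061 to 7630 with an array left out. The liver interaction called 103 genes, 222 on deposited values, 52 under median scaling, 39 without a filter, 36 with the replicate block and 19 to 111 with an array left out. The lung interaction called 11, 36 on deposited values, 7 without a filter, 4 with the replicate block and 3 to 17 with an array left out. Diet in 4T1 livers called 33 genes, 170 on deposited values, 57 under median scaling, 104 with only the groups compared, 9 with the replicate block and 4 to 61 with an array left out. Diet in 4T1 lungs called 0 by limma, 2 on deposited values, 1 with the stricter filter, 1 with the replicate block and 0 to 2 with an array left out. Diet in sham mice called 1217 genes in liver, 802 under median scaling, 324 with only the groups compared and 837 to 1158 with an array left out, and 213 in lung, 369 on deposited values, 133 without a filter, 115 with the replicate block and 50 to 225 with an array left out. The replicate block changed no call for a Saa gene. Of the acute phase genes, 18 were higher in liver on each diet, 16 to 18 on the high-fat and 14 to 18 on the control diet with an array left out, and 21 on each under median scaling, settings added after seeing the data.

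Signals of Saa1, Saa2 and Saa4 in lung and Saa2 in sham livers lie at or near background, which limits what can be measured there.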
